A study of Mus musculus with 8 samples.

Results

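The 36 genes described here act in mitosis or at the passage from G2 into it, and their promoters and surroundings were followed in 8 ATAC-seq peak lists from SN4741 cells. ATAC-seq tags open DNA with a transposase, and a peak is a stretch where the tagged fragments pile up. The genes were listed by name, from the proliferation marker Mki67 through cyclins, kinases, kinetochore proteins and motors to the transcription factors Foxm1 and Mybl2, and all 36 were found among the 21938 protein-coding genes of GENCODE M21 on mm10. SN4741 is described as a clonal line from embryonic mouse substantia nigra, labelled as neural precursor cells of wild-type genotype. It carries a temperature-sensitive mutant of the SV40 T antigen driven by a promoter of tyrosine hydroxylase, and the study found its karyotype abnormal, with most chromosomes in excess. In the group named here 37 °C, 4 libraries came from cells at the permissive temperature in 10% fetal bovine serum. In the group named 39 °C, 4 libraries came from cells held for 48 hours in 0.5% serum at the non-permissive temperature. Temperature and serum changed together, so their parts cannot be told apart. The labels do not say whether the replicates were separate cultures, and the p-values below measure only the spread between these libraries.

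Genes of mitosis are transcribed in a wave that peaks in G2 and M. Many of their promoters hold a cell cycle homology region (CHR), which the MuvB core of the DREAM complex binds, and CCAAT boxes, which the activator NF-Y binds. In resting cells DREAM, built on the pocket proteins p107 and p130, keeps such genes silent, and in G2 the MuvB core joins B-MYB (Mybl2) and FOXM1 to switch them on. In cycling precursor cells the products of these genes build the spindle, attach it to the kinetochores and time the separation of the chromosomes.

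The promoters of 6 members are shown with these elements, since most members carried them. The set joins the cyclin and kinase pair of mitotic entry (Ccnb2 and Cdk1), a marker of cycling cells (Mki67), the topoisomerase that untangles chromosomes (Top2a), a kinase with its box next to the start (Plk1) and the member whose rank went up (Hmmr). The sequences are RefSeq promoter windows on GRCm38.p6, from 250 bases before the gene start to 50 after it, written 5′ to 3′ on the strand of the gene. Capitals mark CHR letters (TTTGAA or TTCGAA) and CCAAT letters, each on either strand. The windows lie at chr9:70421505-70421804 (minus strand, Ccnb2), chr10:69352863-69353162 (minus, Cdk1), chr7:135716330-135716629 (minus, Mki67), chr11:99024140-99024439 (minus, Top2a), chr7:122159185-122159484 (plus, Plk1) and chr11:40733388-40733687 (minus, Hmmr).
Ccnb2: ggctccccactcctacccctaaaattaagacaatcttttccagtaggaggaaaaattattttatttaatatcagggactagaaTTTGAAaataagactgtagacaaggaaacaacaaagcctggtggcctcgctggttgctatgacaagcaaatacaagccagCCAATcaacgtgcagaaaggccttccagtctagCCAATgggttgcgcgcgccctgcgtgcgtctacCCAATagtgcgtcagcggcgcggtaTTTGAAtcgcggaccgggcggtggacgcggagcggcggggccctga
Cdk1: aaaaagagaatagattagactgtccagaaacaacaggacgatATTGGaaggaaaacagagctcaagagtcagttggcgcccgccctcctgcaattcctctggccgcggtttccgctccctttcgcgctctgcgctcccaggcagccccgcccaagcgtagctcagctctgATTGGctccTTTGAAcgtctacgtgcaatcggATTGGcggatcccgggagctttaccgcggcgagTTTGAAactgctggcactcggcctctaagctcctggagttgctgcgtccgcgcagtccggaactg
Mki67: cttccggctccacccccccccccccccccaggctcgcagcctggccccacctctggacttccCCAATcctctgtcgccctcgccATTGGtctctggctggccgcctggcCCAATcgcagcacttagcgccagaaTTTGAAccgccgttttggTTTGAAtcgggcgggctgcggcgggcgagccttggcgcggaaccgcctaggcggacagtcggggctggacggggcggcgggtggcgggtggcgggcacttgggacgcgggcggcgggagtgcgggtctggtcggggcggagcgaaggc
Top2a: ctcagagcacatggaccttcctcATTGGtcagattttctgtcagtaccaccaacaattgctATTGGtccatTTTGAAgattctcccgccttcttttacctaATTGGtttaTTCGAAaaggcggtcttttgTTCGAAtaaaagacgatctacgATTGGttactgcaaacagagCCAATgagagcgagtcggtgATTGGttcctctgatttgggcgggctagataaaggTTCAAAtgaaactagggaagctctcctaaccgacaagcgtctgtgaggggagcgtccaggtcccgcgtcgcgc
Plk1: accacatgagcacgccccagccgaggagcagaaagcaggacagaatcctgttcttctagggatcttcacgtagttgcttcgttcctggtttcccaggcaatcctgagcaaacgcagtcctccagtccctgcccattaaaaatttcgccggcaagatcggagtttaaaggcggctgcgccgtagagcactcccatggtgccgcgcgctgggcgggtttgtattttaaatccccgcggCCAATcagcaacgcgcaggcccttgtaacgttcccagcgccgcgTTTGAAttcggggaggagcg
Hmmr: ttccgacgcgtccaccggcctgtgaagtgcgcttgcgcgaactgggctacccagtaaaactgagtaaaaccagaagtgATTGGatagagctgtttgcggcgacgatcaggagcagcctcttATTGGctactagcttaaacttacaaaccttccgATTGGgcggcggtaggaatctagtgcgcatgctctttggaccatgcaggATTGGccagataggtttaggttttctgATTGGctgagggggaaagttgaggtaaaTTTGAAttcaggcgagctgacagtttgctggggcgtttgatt

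In Ccnb2 the CCAAT boxes began at -87, -54 and -21 relative to the start and a CHR at 4, just past it. In Cdk1 a box at -48 was followed by a CHR at -15, and in Hmmr a box at -20 was followed by a CHR at 8. Mki67 held its 3 boxes and 2 CHRs farther upstream, with the CHRs at -116 and -98. Top2a had 6 boxes and 4 CHRs, the most CHRs of any member. Plk1 had 1 of each, the box at -14 and the CHR at 30.

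A window was given for 29 of the 36 members (not for Ccna2, Cdc25c, Aurkb, Kif20a, Incenp, Tpx2 and Foxm1). CHR letters occurred in 22 of these 29 windows (75.9%), against 19.4% of all 27025 windows in the table and 13.3% of the 10193 windows of coding genes open in all 8 libraries. CCAAT occurred in 21 members (72.4%), against 37.9% of all windows and 38.8% of those open in all 8. Both occurred together in 19 members (65.5%), against 7.7% and 5.72%. A CHR that began between 60 bases before and 20 after the start was found in 14 members (48.3%), against 4.74% of all windows and 2.8% of the open ones. Neighbouring CCAAT boxes spaced by 30 to 36 bases were found in 6 members (20.7%), namely Ccnb1, Ccnb2, Cdk1, Aurka, Ube2c and Hmmr, against 1.88% of all windows and 3.07% of the open ones. Those ranges of position and spacing were chosen after the letters had been seen. None of the 30 CHR matches in members overlapped one of the 49 CCAAT matches. The members without CHR letters in the window were Ccnb1, Mad2l1, Cenpe, Birc5, Nuf2, Mybl2 and Nusap1. These are matches of letters, not sites shown to be bound.

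**Figure D1:**
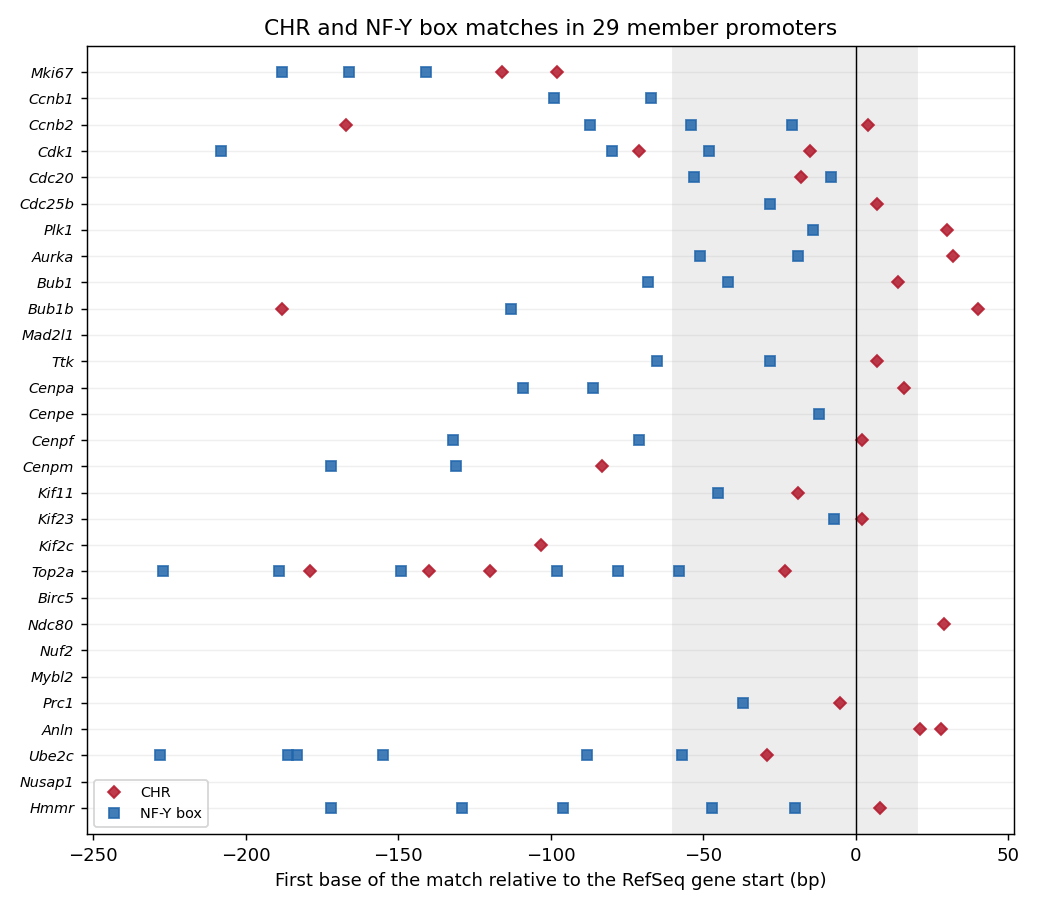
Positions of CHR matches (diamonds) and CCAAT (NF-Y) boxes (squares) in the RefSeq promoter windows of 29 members, by the first base of each match relative to the gene start (bp). The grey band runs from -60 to 20, where 14 members had a CHR, and the boxes lie mostly to the left of the CHRs.

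Other letters were searched in the same windows. E2F sites (TTTCCCGC, TTTGGCGC, TTTCGCGC or TTTGCCGC, both strands) occurred in 2 members (6.9%), against 2.32% of all windows and 4.16% of the open ones, while 14 of 45 windows of DNA replication genes (31.1%) held one. The MYB letters AACGG occurred in 8 members (27.6%, against 17.7% of all and 23.8% of open windows), the forkhead letters GTAAACA in 1 (3.45%, against 3.55% of all and 2.33% of open windows), the SP/KLF box GGGCGG in 24 (82.8%, against 35.9% of all and 65.8% of open windows) and TATAAA in 1 (3.45%, against 14.2% of all and 6.58% of open windows). Member windows had a median GC content of 60.7% and a median of 25 CpG, against 61.3% and 21 in open coding promoters. The RefSeq start lay inside the promoter peak in all 8 libraries for 28 of the 29 members. For Kif2c it lay in no library's promoter peak and at least 3783 bp from the summit.

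The libraries differed in depth, which bears on every count of peaks. At 37 °C the peak caller kept 169, 64.2, 49.8 and 158 M fragments (M for mega) in replicates 1 to 4, and at 39 °C 59.5, 71.2, 59.4 and 52.7 M, so that the 2 deepest libraries were both at 37 °C. Coding genes with a peak at a promoter (within 1 kb of a transcription start site) numbered 14292 to 14872 at 37 °C and 13269 to 13831 at 39 °C. Of the precursor markers, Nes, Sox2, Pax6, Msi1, Vim and Hes1 had promoter peaks in all 8 libraries, Sox1 in 4 at 37 °C and 3 at 39 °C, and Fabp7 in none. All 5 neuron markers and all 5 mesenchymal markers were open in every library, as was Cd68 of the immune markers, whereas Ptprc and the endothelial Cdh5 were open in none and Pecam1 in 4 and 3. Open promoters at these markers thus did not set one cell type apart.

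Whether the promoters closed at 39 °C was asked first. By its best peak no member did, and all 36 had a promoter peak in all 8 libraries. Across coding genes with a promoter peak in any library, 13145 of 15065 had one in all 8, and 11.6% had one in fewer libraries at 39 °C than at 37 °C, against 0 members. That background includes weaker peaks and was not matched to the members for peak strength. The summit of a member's peak moved by 0 to 135 bp between libraries, by 0 in Aurka and Bub1 and by 135 in Aurkb. In 6 members the peak also covered the start of another coding gene (Cdc25b with Spef1, Aurka with Cstf1, Kif20a with Brd8, Foxm1 with Rhno1, Nusap1 with Oip5 and Hmmr with Nudcd2), and fragments there cannot be assigned to either gene.

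Members were then compared by how high their promoters ranked. Each promoter peak was placed, by the −log10 q of the caller, as a percentile among all other open coding promoters of its library, so that 100 would be the strongest. The median member stood at 64.0, 60.8, 60.8 and 65.4 at 37 °C and at 49.5, 53.1, 51.2 and 48.4 at 39 °C, with no overlap between the groups. The median over the genes open in all 8 libraries did not overlap either. It ran from 53.9 to 55.6 at 37 °C and from 50.4 to 52.5 at 39 °C. In limma across 13145 genes open in all 8 libraries, 29 of 36 members ranked lower at 39 °C and 1, Hmmr, ranked higher (adjusted p under 0.05). Of all genes tested, 29.7% were called lower and 3.9% higher. The median difference over the members was -8.32 points, against -2.53 over all genes tested, and 34 members (94.4%) lay below 0, against 72.3% of all genes. The 4 values at one temperature lay all below those at the other for 28 members lower at 39 °C (31.9% of all genes) and 1 higher (3.89% of all genes).

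A percentile also depends on how many promoters were open in the library, and that number differed between the temperatures. Promoters were therefore ranked a second time only among the 13145 genes open in all 8 libraries, an alternative chosen after the data were seen, which by its construction centres the change over all genes near 0 (median 0.40 points). The median over the members was then -5.97 points, and 19 members were called lower, where 7.79% of all genes were, and Hmmr again higher, where 8.68% of all genes were. Calls toward lower made up 88.4% of all calls in the first ranking and 47.3% in the second, where the centring evens out the directions. The 10 members whose call was lost in the second ranking were Top2a, Ccnb1, Plk1, Bub1b, Mad2l1, Ttk, Cenpa, Kif23, Prc1 and Nuf2. With the 2 deepest libraries left out, 19 members were called lower, where 10.7% of all genes were, and the median difference was -7.56 points. In that smaller fit Plk1, Mad2l1, Ttk, Cenpa, Kif23, Top2a, Incenp, Nuf2, Prc1 and Ube2c lost the call. Leaving out 1 library at a time cost 8 members their call, with adjusted p up to 0.127. These were Ccnb1 (without 37 °C replicate 2, 3 or 4 or 39 °C replicate 1 or 4), Plk1 (37 °C replicate 1, 2 or 4 or 39 °C replicate 4), Mad2l1 (37 °C replicate 2 or 4 or 39 °C replicate 1), Ttk (37 °C replicate 1 or 4 or 39 °C replicate 1, 2 or 3), Cenpa (37 °C replicate 2 or 4 or 39 °C replicate 1, 2 or 4), Kif23 (any but 39 °C replicate 1), Nuf2 (any but 39 °C replicate 3) and Prc1 (37 °C replicate 3 or 39 °C replicate 1). Calls in both rankings, without the deepest libraries and with any library left out were shared by 18 members, 17 lower and Hmmr higher. Ranks are relative, so a promoter can also rank lower because others in its library gained, without becoming less open itself. Where it became less open, bulk libraries cannot tell fewer cells with an open promoter from a less open promoter in each cell.

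**Figure D2:**
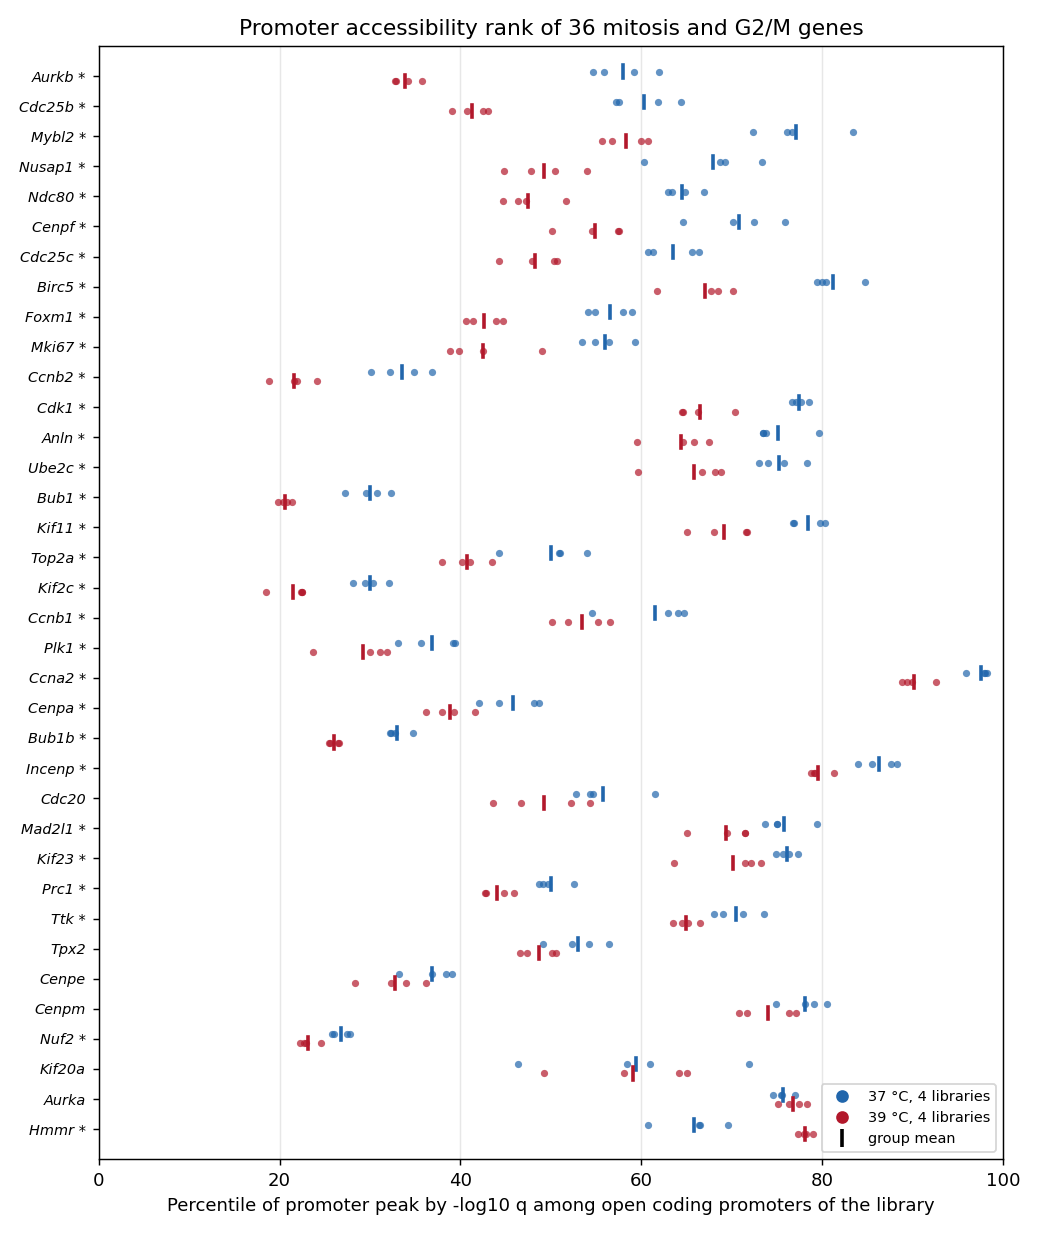
Percentile of each member's promoter peak by −log10 q among open coding promoters of the same library, for the 4 libraries at 37 °C (blue) and the 4 at 39 °C (red), with group means as bars. Genes run from the largest fall in points (Aurkb, top) to the rise of Hmmr (bottom), an asterisk marks adjusted p under 0.05 in limma, and in most members the red points lie left of the blue.

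Values below are percentiles in replicates 1 to 4, differences are in points of percentile (39 °C minus 37 °C), and adjusted p is from limma over all 13145 genes in the first ranking.

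Among cyclins, kinases and phosphatases of mitotic entry, 7 of 8 members were called lower and 5 stayed so in the second ranking. Ccna2, the cyclin of S phase and G2, ranked highest of all members, at 95.9, 98.2, 97.9 and 98.0 at 37 °C and 89.4, 89.9, 92.5 and 88.8 at 39 °C, and fell by 7.33 points (adjusted p = 0.000641). Every library at 39 °C lay below every library at 37 °C. Cdk1, the kinase these cyclins activate, stood at 77.0, 78.5, 76.7 and 77.7 at 37 °C and 64.6, 66.3, 64.5 and 70.4 at 39 °C and fell by 11.03 (adjusted p = 0.00150). Its partner cyclin Ccnb2 lay in the lower part of the list, at 30.2, 34.8, 32.2 and 36.9 at 37 °C and 21.9, 21.6, 24.1 and 18.9 at 39 °C, and fell by 11.9 (adjusted p = 0.00203). The other B-type cyclin, Ccnb1, gave 54.6, 62.9, 64.7 and 64.0 at 37 °C and 50.1, 56.6, 55.2 and 51.9 at 39 °C and fell by 8.12 (adjusted p = 0.0342), but replicate 1 at 37 °C lay within the range at 39 °C, and the call was lost in the second ranking (adjusted p = 0.182).

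The phosphatases that free CDK1 from its inhibitory phosphates were both called lower in both rankings. Cdc25b stood at 61.9, 57.3, 57.6 and 64.4 at 37 °C and 42.5, 43.0, 39.1 and 40.7 at 39 °C, and fell by 18.9 (adjusted p = 0.000419), with a peak that also covered the start of Spef1. Cdc25c stood at 65.6, 61.2, 60.8 and 66.3 at 37 °C and 47.9, 50.6, 50.3 and 44.3 at 39 °C, and fell by 15.2 (adjusted p = 0.00131). Neither overlapped between temperatures. Plk1, a kinase that acts from entry to cytokinesis, gave 39.2, 35.6, 33.1 and 39.4 at 37 °C and 31.9, 31.1, 30.0 and 23.7 at 39 °C, and fell by 7.64 (adjusted p = 0.0290), and its call was lost in the second ranking (adjusted p = 0.178). Aurka, the kinase of the spindle poles, was the exception, at 75.4, 74.5, 77.0 and 75.5 at 37 °C and 77.4, 76.3, 75.1 and 78.4 at 39 °C: its difference of 1.17 points was not called (adjusted p = 0.510), and its sign turned when peaks were ranked among all peaks instead of promoters. Its promoter peak is shared with Cstf1.

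In the spindle checkpoint and the anaphase-promoting complex, 5 of 6 members were called lower and 2, Bub1 and Ube2c, stayed so in the second ranking. Ube2c, the ubiquitin-conjugating enzyme of the complex, stood at 74.0, 75.7, 73.0 and 78.3 at 37 °C and 59.7, 66.7, 68.2 and 68.8 at 39 °C and fell by 9.43 (adjusted p = 0.0101). Bub1, a checkpoint kinase, lay low in the list at 32.3, 27.2, 29.6 and 30.7 at 37 °C and 21.4, 20.3, 20.8 and 19.8 at 39 °C, and fell by 9.39 (adjusted p = 0.00172). Bub1b, which encodes BUBR1, gave 32.2, 32.4, 32.7 and 34.7 at 37 °C and 25.6, 25.5, 26.5 and 26.5 at 39 °C, with little spread within either group, and fell by 6.96 (adjusted p = 0.00460). Ranked among genes open in all 8 libraries, its adjusted p was 0.175.

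Mad2l1, whose product holds back the activator CDC20, stood at 75.0, 75.0, 73.7 and 79.5 at 37 °C and 65.1, 71.5, 69.5 and 71.4 at 39 °C and fell by 6.43 (adjusted p = 0.0283). Ttk, the kinase that starts checkpoint signalling, stood at 71.2, 69.0, 68.1 and 73.6 at 37 °C and 63.5, 65.2, 64.5 and 66.5 at 39 °C and fell by 5.55 (adjusted p = 0.0295). In both the groups did not overlap, yet each call was lost in the second ranking (adjusted p = 0.114 and 0.145). Cdc20 itself, at 54.6, 52.7, 54.3 and 61.5 at 37 °C and 43.6, 52.2, 54.3 and 46.7 at 39 °C, overlapped between temperatures and was not called in rank (adjusted p = 0.0941), although its peak narrowed, as described with the widths. It was called lower with 5 kb promoters (adjusted p = 0.0150), among all peaks (adjusted p = 0.0159) and without 39 °C replicate 3 (adjusted p = 0.0497). With 5 kb promoters 2909 of all genes were called lower, and the Cdc20 difference of normal scores was -0.52, against -0.17 with 1 kb. The other region of its locus, at chr4:118427034-118431030, lay in the promoter of another coding gene. Whether the 5 kb value comes from that peak was not tested. Ranking among all peaks called 7624 of all genes lower, against 3906 in the ranking used here, so more calls among the members come with more calls among all genes.

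The chromosomal passenger complex, which corrects faulty attachments and directs cytokinesis, was called lower in all 3 members and in both rankings. Aurkb, its kinase, fell furthest of all 36 members in points of percentile, though on the normal score scale Ccna2 fell further. It stood at 59.2, 54.7, 55.9 and 61.9 at 37 °C and 35.7, 32.7, 34.2 and 32.9 at 39 °C and fell by 24.0 points (limma difference of normal scores -0.62 with SE 0.05, adjusted p = 8.40e-05), and in the second ranking it fell by 22.1 points. With peaks taken within 5 kb of the start sites its difference of normal scores was -0.29 (adjusted p = 0.0420). That window also reached a region in the promoter of another coding gene, at chr11:69034625-69042016. Whether the 5 kb value comes from that peak was not tested. The fold enrichment at its summit, the ratio of the pileup to the library's background, was 60.7, 63.9, 63.6 and 63.7 at 37 °C and 48.0, 38.3, 47.2 and 27.2 at 39 °C. This ratio is not scaled between libraries, and 39 °C replicate 4 had the lowest ratio of the 8 libraries at all 36 members. At Ccna2, also called lower in rank, the ratio overlapped between temperatures, at 119 to 150 at 37 °C and 71.5 to 144 at 39 °C. Birc5, the survivin subunit, stood at 80.4, 79.4, 84.8 and 80.0 at 37 °C and 67.7, 68.5, 61.7 and 70.1 at 39 °C and fell by 14.1 (adjusted p = 0.00149). Incenp, the scaffold, stood high at 87.6, 85.5, 83.9 and 88.2 at 37 °C and 81.2, 79.1, 78.8 and 79.2 at 39 °C and fell by 6.75 (adjusted p = 0.00490), a call that was lost without the 2 deepest libraries.

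At the centromere and kinetochore, 4 of 6 members were called lower and 2, Cenpf and Ndc80, stayed so in the second ranking. Ndc80, which binds microtubules, stood at 63.3, 62.9, 64.8 and 67.0 at 37 °C and 44.7, 47.3, 51.7 and 46.3 at 39 °C, and fell by 17.0 (adjusted p = 0.000496). Nuf2, its partner in the same complex, had the lowest mean percentile over the 8 libraries of all members (at 39 °C alone Bub1, Kif2c and Ccnb2 lay lower), at 25.9, 27.4, 26.0 and 27.8 at 37 °C and 22.9, 22.3, 24.6 and 22.8 at 39 °C, and a difference of -3.63 points (adjusted p = 0.0474) that became 1.08 in the second ranking and was not called there (adjusted p = 0.554). The 2 subunits thus stood far apart in both level and change.

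Cenpf, a large protein of the outer kinetochore, gave 64.6, 70.2, 75.8 and 72.4 at 37 °C and 50.1, 57.5, 54.6 and 57.4 at 39 °C, and fell by 15.8 (adjusted p = 0.00297). Cenpa, the centromeric histone H3 variant, gave 44.2, 48.7, 42.0 and 48.2 at 37 °C and 39.3, 38.0, 41.7 and 36.2 at 39 °C, and fell by 7.003 (adjusted p = 0.0268), which was not called in the second ranking (adjusted p = 0.212). The motor Cenpe stood at 38.4, 33.2, 36.8 and 39.1 at 37 °C and 32.4, 36.2, 34.0 and 28.3 at 39 °C and Cenpm at 74.9, 79.0, 80.5 and 78.1 at 37 °C and 70.8, 71.7, 77.1 and 76.3 at 39 °C. Their groups overlapped, and neither difference, -4.16 and -4.15 points, was called (adjusted p = 0.152 and 0.115), but both were called lower when ranked among all peaks (adjusted p = 0.0213 and 0.00880).

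Motors, spindle and cytokinesis proteins were the most varied group, with 6 of 9 called lower and 1 higher. Nusap1, which bundles spindle microtubules, stood at 69.2, 60.3, 68.7 and 73.3 at 37 °C and 50.4, 54.0, 47.8 and 44.9 at 39 °C, and fell by 18.6 (adjusted p = 0.00240), at a peak that also covers the start of Oip5. Anln, a scaffold of the contractile ring, stood at 73.8, 79.6, 73.4 and 73.5 at 37 °C and 67.5, 65.8, 59.5 and 64.6 at 39 °C, and fell by 10.7 (adjusted p = 0.00620). Kif11, the motor that pushes the spindle poles apart, stood at 76.8, 79.8, 76.8 and 80.3 at 37 °C and 65.1, 68.1, 71.6 and 71.6 at 39 °C, and fell by 9.35 (adjusted p = 0.00492). Kif2c, which depolymerises microtubules, lay low at 30.3, 28.1, 29.4 and 32.1 at 37 °C and 22.5, 22.4, 22.5 and 18.5 at 39 °C, and fell by 8.52 (adjusted p = 0.00389). These 4 kept their call in the second ranking.

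Kif23, a motor of the central spindle, gave 76.3, 77.3, 74.9 and 75.7 at 37 °C and 73.2, 72.1, 71.5 and 63.6 at 39 °C, and fell by 5.96 (adjusted p = 0.0469), and Prc1, which bundles that spindle, gave 49.1, 49.6, 52.6 and 48.6 at 37 °C and 42.7, 45.9, 44.8 and 42.9 at 39 °C, and fell by 5.93 (adjusted p = 0.0231). Both lost the call in the second ranking (adjusted p = 0.142 and 0.314). The spindle assembly factor Tpx2, at 52.4, 54.2, 49.2 and 56.4 at 37 °C and 47.3, 46.6, 50.6 and 50.1 at 39 °C, overlapped slightly and was not called (adjusted p = 0.116) except among all peaks (adjusted p = 0.0140). Kif20a, a motor of cytokinesis, varied more within each temperature than between them, at 71.9, 58.4, 46.4 and 60.9 at 37 °C and 58.1, 64.1, 49.2 and 65.0 at 39 °C, with a difference of -0.307 (adjusted p = 0.955) whose sign was positive in the second ranking.

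Hmmr, which encodes a hyaluronan receptor that also acts at the spindle, went the other way. It stood at 66.4, 66.5, 60.8 and 69.6 at 37 °C and 77.4, 78.1, 78.9 and 77.9 at 39 °C, so that every library at 39 °C lay above every library at 37 °C, and it rose by 12.3 points (limma difference of normal scores 0.37 with SE 0.05, adjusted p = 0.00150). In the second ranking the rise was 15.0 points, and among all peaks the difference of normal scores was 0.14, still called. Fold enrichment at its summit was 67.5, 76.1, 68.8 and 70.6 at 37 °C and 99.7, 87.3, 106 and 58.3 at 39 °C. The peak covers the start of Nudcd2 as well. Of the 6 members with a shared promoter peak, 3 were called lower and 1 higher, with a median difference of -7.08 points, and of the other 30 members 26 were called lower, with a median of -8.32 points.

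Both members of chromosome structure and surface fell. Mki67, which encodes the Ki-67 antigen, stood at 59.3, 56.4, 53.5 and 54.9 at 37 °C and 49.0, 42.5, 39.9 and 38.9 at 39 °C, and fell by 13.5 (adjusted p = 0.00399). Top2a stood at 51.1, 50.8, 44.2 and 53.9 at 37 °C and 37.9, 41.1, 40.2 and 43.5 at 39 °C, and fell by 9.34 (adjusted p = 0.0132), which was not called in the second ranking (adjusted p = 0.0961). So did both transcription factors that drive these genes. Foxm1 stood at 58.0, 59.0, 54.1 and 54.9 at 37 °C and 40.6, 41.4, 44.7 and 44.0 at 39 °C, and fell by 13.8 (adjusted p = 0.00102), at a peak shared with Rhno1. Mybl2 stood at 72.3, 76.1, 83.3 and 76.7 at 37 °C and 56.7, 55.6, 60.0 and 60.8 at 39 °C, and fell by 18.8 (adjusted p = 0.00122). In these 4 genes no library at 39 °C reached the lowest at 37 °C.

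**Figure D3:**
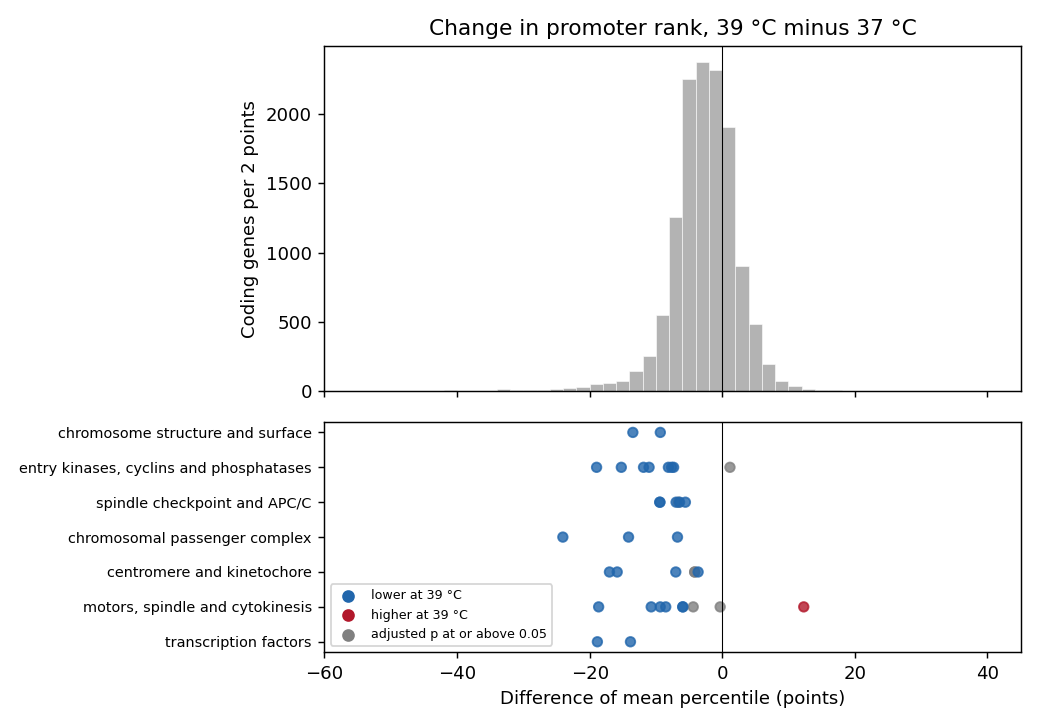
Difference of mean percentile, 39 °C minus 37 °C, for 13145 coding genes (top, genes per 2 points; 12 genes below -60 are outside the axis) and for the 36 members by role (bottom; blue called lower, red called higher, grey not called in limma). The members sit mostly left of the bulk of genes, with Hmmr farthest to the right at 12.3 points and Aurka, not called, also above 0 at 1.17.

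Members were also split by their CHR letters, with no test of the split. Of the 22 members with a CHR, 18 were called lower, with a median difference of -8.93 points. Of the 7 with a window but no CHR, 6 were called lower, with a median of -8.12. Birc5, Mybl2, Nusap1, Mad2l1 and Nuf2 had neither CHR nor CCAAT letters in the window, and they include large and small falls, while Hmmr had 5 CCAAT boxes and a CHR.

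Other genes of the same machinery were read from lists, beside the 29.7% of all genes called lower and 3.9% called higher in the first ranking and 7.79% called lower in the second. Of 58 other mitotic genes, 30 (51.7%) were called lower and 2 (3.45%) higher, with a median difference of -4.86 points, and 18 (31%) were lower in the second ranking. Among them Nek2, a kinase of the centrosome, fell by 22.3 points, the most (81.4 ± 1.39 to 59.0 ± 2.13, mean ± SD, n = 4 each, adjusted p = 2.99e-05 in limma), and the motor Kif14 fell by 19.7. The 2 that rose were Gtse1, by 10.1 points, and the condensin subunit Smc4, by 10.9. CHR letters occurred in 30 of 48 windows of these genes (62.5%). Of 54 DNA replication genes, which act in S phase, 32 (59.3%) were called lower and 0 higher, with a median of -6.94 points, and 21 (38.9%) were lower in the second ranking. CHR letters occurred in 8 of their 45 windows (17.8%).

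Among genes for the proteins that repress or activate mitotic genes, calls went both ways. Of 22 genes of DREAM, its MuvB core, the E2F family, the pocket proteins and NF-Y, 2 (9.09%) were called lower and 3 (13.6%) higher, with a median of -0.51 points. Rb1, which encodes the retinoblastoma protein, rose from 62.7 ± 2.90 to 74.3 ± 1.12 (mean ± SD, n = 4 each, adjusted p = 0.00165 in limma). Rbl2, which encodes p130 of DREAM, rose from 75.4 ± 1.02 to 81.3 ± 2.04 (adjusted p = 0.0111). Dyrk1a, the kinase that promotes DREAM assembly, rose from 72.6 ± 6.48 to 82.3 ± 2.55 (adjusted p = 0.0262). All 3 were called higher in the second ranking as well, where 8.68% of all genes were. Rbl1, which encodes p107 of DREAM, fell by 4.89 points and was not called (adjusted p = 0.138). E2f4, Tfdp1, Tfdp2 and E2f5 differed by -3.54, -8.41, -4.04 and 2.76 points, and none was called. E2f2 fell by 10.5 points and E2f7 fell by 9.29. The MuvB genes Lin9, Lin37, Lin52 and Lin54 differed by -2.74 to 1.84 points, and none was called. As a group outside the cell cycle, 16 of 77 ribosomal protein genes (20.8%) were called lower and 3 (3.9%) higher, with a median of -1.45, and 5 (6.49%) were lower in the second ranking, shares at or below those of all genes.

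**Figure D4:**
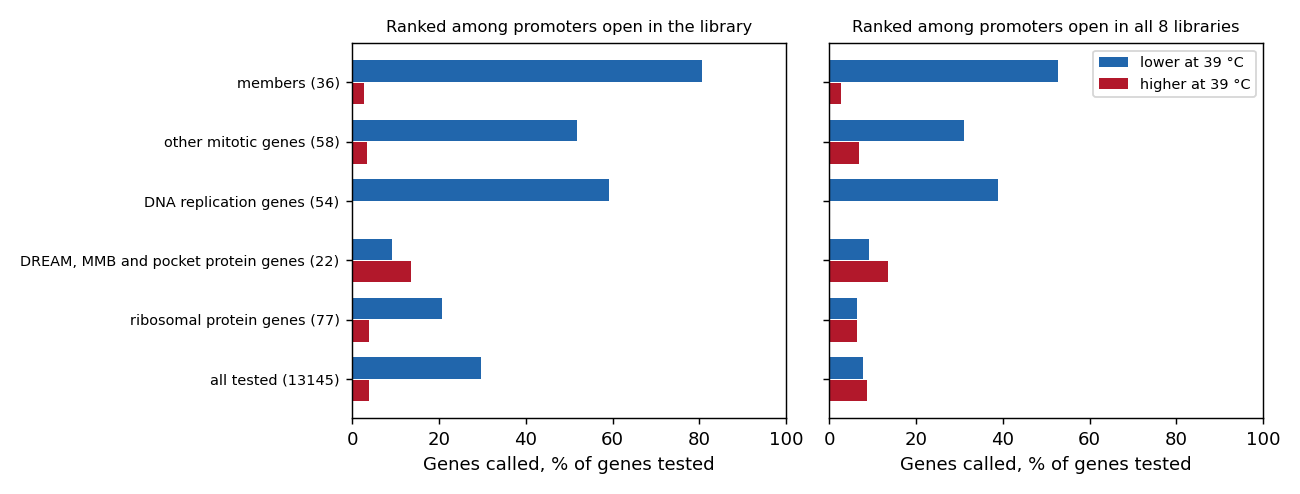
Share of genes called lower (blue) or higher (red) at 39 °C in limma, in % of the genes tested (numbers in parentheses), for the members, 4 other gene lists and all genes, with promoters ranked among those open in the library (left) or in all 8 libraries (right). The members have the longest blue bar in both panels, 29 and 19 of 36.

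The widths of the same peaks were compared next. The median member peak was 2850, 2496, 2163 and 2647 bp wide at 37 °C and 2101, 2187, 1997 and 1861 bp at 39 °C, and the median over all tested genes was 2099 to 2721 bp and 1858 to 2209 bp. Widths were ranked within each library in the same way, and the median difference in width rank was -4.36 points over the members and 0.08 over all genes tested. Ranked among genes open in all 8 libraries these medians were -1.24 and 2.41. Cdc20 was the member called narrower (8.09% of all genes were), with peaks of 3601, 3659, 3421 and 3895 at 37 °C and 1990, 2278, 2140 and 1789 at 39 °C (bp). Its groups lay far apart, at 3644 ± 196 and 2049 ± 210 bp (SD, n = 4 each), and its width rank fell by 27.6 points (adjusted p = 0.00602 in limma). Kif23 was called wider in rank (3.41% of all genes were), with peaks of 2877, 2560, 2627 and 2746 at 37 °C and 3257, 2653, 2656 and 2680 at 39 °C (bp), a rise of 13.3 points (adjusted p = 0.0494), although in bp its groups overlapped. Without any one of 7 libraries, all but replicate 3 at 37 °C, that call was lost (adjusted p up to 0.132).

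By non-overlap, 2 members ranked narrower at 39 °C, Cdc20 and Cdc25c (12.2% of all genes), and Prc1 wider (9.55% of all genes). In bp the Prc1 peak did not widen, with a mean of 1676 bp at 37 °C and 1645 bp at 39 °C. Among genes open in all 8 libraries, Cdc20 was called narrower (6.44% of all genes were) and Kif23 and Prc1 wider in rank (6.72% of all genes were). Far fewer members were thus called by width than by peak score, and so were far fewer of all genes (8.09% narrower against 29.7% lower). A few peaks were much wider in the deep libraries, such as Cdk1 with 5760, 2989, 3793 and 5712 at 37 °C and 2691, 2590, 2430 and 2501 at 39 °C (bp) and Kif11 with 6169, 3376, 3302 and 6162 at 37 °C and 3108, 3338, 3347 and 2097 at 39 °C (bp). In both genes the 2 widest peaks came from the 2 deepest libraries.

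The surroundings of the genes were examined last, from 5 kb before to 5 kb after each gene. Overlapping peaks of all libraries were merged, and regions called in at least 2 libraries were kept, of which 125 lay in these loci. Of these, 55 (44%) were called in all 8 libraries, against 52.9% of all 84777 such regions. In 67 (53.6%) fewer libraries called the region at 39 °C, against 37.9% of all regions, and in 2 (1.6%) more did, against 5.46%. Depth moved with this count: 24 of the 125 regions (19.2%) were called in the 2 deepest libraries alone, against 6.75% of all regions. When each list was held to its 54845 strongest peaks, 64 regions were left in the loci, of which 8 (12.5%) were called in fewer libraries at 39 °C, against 17.4% of all regions.

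**Figure D5:**
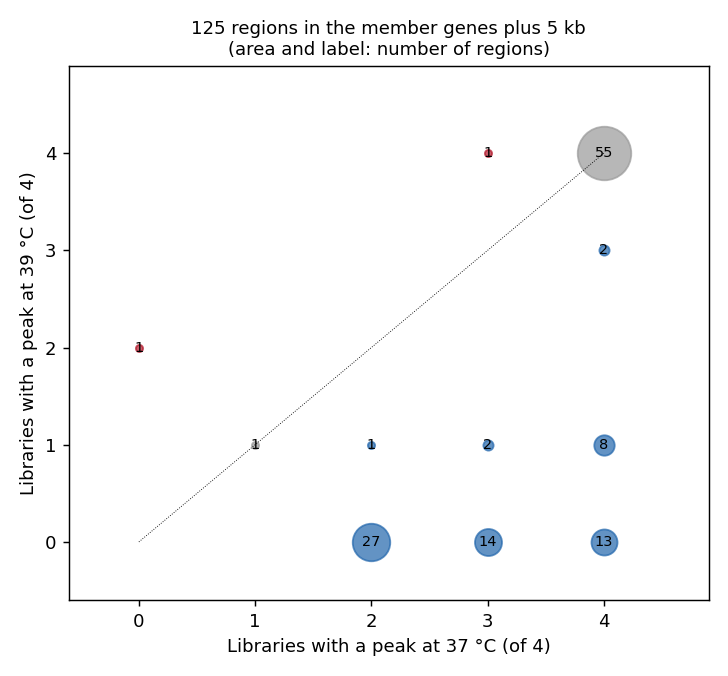
Number of libraries with a peak at 37 °C (x axis, of 4) and at 39 °C (y axis, of 4) for 125 regions in the member genes plus 5 kb; area and label give the number of regions. Regions called in all 8 libraries (55) sit at the upper right, and 54 regions seen at 37 °C only lie along the bottom.

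In 13 regions (10.4%, against 6.04% of all regions) all 4 libraries at 37 °C and none at 39 °C called a peak. None showed the opposite, as did 0.314% of all regions. The 13 lay in 8 genes (22.2% of members), and of all coding genes with a region, 19% had at least 1 of this kind, so the share of genes was near the background. They were 2 each at Ccnb2, Cdk1, Top2a, Incenp and Foxm1 and 1 each at Ccna2, Kif11 and Anln. By position, 7 lay inside the gene and 6 downstream of it. At Top2a 1 and at Incenp 2 of them overlapped a window within 1 kb of a further start site of the gene itself. Of 53 regions in the members' own promoter windows, 15 (28.3%) were called in fewer libraries at 39 °C and 3 (5.66%) in this way, against 21.4% and 5.34% of all 18311 regions in coding promoter windows. Of 62 regions outside any coding promoter, 48 (77.4%) were called in fewer libraries at 39 °C and 9 (14.5%) in this way, against 42.5% and 6.23% of all such regions.

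These were weak peaks. Their fold enrichment ran from 1.77 to 8.41, and they stood 39.3% to 98.6% of the way down their lists, with a median of 81.2%. The strongest lay past the end of Anln, at chr9:22325989-22328911, with a fold enrichment of 8.41, 8.31, 8.39 and 7.60 in replicates 1 to 4 at 37 °C. One in the body of Ccnb2, at chr9:70416335-70416739, had 3.17, 3.25, 5.23 and 3.78. At Cdk1 one region lay inside the 3′ end of the gene at chr10:69335176-69336390, and the other past it at chr10:69333030-69334444. With equal numbers of peaks there were 3 such regions of 64 (4.69%, against 2.7% of all regions), and without the 2 deepest libraries 14 of 90 (15.6%, against 8.72%). Leaving out replicate 3 at 37 °C, the shallowest library, gave 25 of 125 (20%, against 10.4% of all regions). Where a library counted only if its peaks covered 50% of the region, 8 of 120 (6.67%) were of this kind, against 6.76% of all regions.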

How the data were processed

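ATAC-seq libraries were made by the Omni-ATAC protocol from aliquots of 50000 cells with 12 cycles of amplification. The authors aligned reads to mm10 with Bowtie2 (2.4.1), removed duplicates with Picard (2.26.11) and called peaks per library with MACS3 (3.0.0a7) at a q-value of 0.05, without a control. Per the file headers, 1 fragment per position was used and 15.4% to 37.3% were dropped. Deposited values used here are peak coordinates, the −log10 q-value, the fold enrichment (a ratio to a genome-wide background of that library) and the pileup signal at the summit, in fragments without depth scaling. Positions are 1-based.

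The lists hold no read counts, so promoters were compared by rank. The best peak within 1 kb of any start site of a gene (GENCODE M21) gave its −log10 q and width, each turned into a percentile and a normal score within its library. limma (3.58.1, R 4.3.3) compared the temperatures over 13145 genes, with Benjamini-Hochberg adjustment and a threshold of 0.05, without a replicate block. Its check on simulated data used independent noise and equal shifts up and down. That check did not cover depth differences or changes in mainly 1 direction. Regions called in at least 2 libraries follow the rule of the study. Alternatives included 500 bp and 5 kb promoters, a −log10 q of at least 5, equal numbers of peaks and each library left out. Values in every library are given for members chosen by role, called, extreme in level or with a region restricted to 1 temperature, and here for all 36. Members, lists and motifs were chosen with earlier results of these data known, so none is independent support. Motif letters were searched on both strands of RefSeq promoter windows (GRCm38.p6). Counting intervals were not given because the lists hold no counts. Bulk RNA, single-cell and capture data were not analysed here, and 1 precursor marker is not reported here.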

Additional observations from a re-analysis of the deposited data

Results flagged for a closer look

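In each member, the 4 percentiles and the 4 widths of a temperature were searched for a value far from the other 3 by Dixon's criterion. Of 144 such groups 12 held one, where chance gives about 7.2, and 8 of the 12 were widths.

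In rank, Ccna2 stood at the 95.9 percentile in 37 °C replicate 1, below the other 3 libraries at 37 °C, and Anln at 79.6 in 37 °C replicate 2, above the others. At 39 °C, Kif2c stood low at 18.5 in replicate 4 and Incenp high at 81.2 in replicate 1.

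In width at 37 °C, the peaks of Cenpf (1624 bp) and Foxm1 (2418 bp) were narrow in replicate 3, the library with the fewest fragments, and the peak of Anln was wide (6046 bp) in replicate 1, the library with the most. At 39 °C, replicate 1 had wide peaks at Mki67 (2264 bp), Kif23 (3257 bp) and Foxm1 (5322 bp). Narrow peaks were found at Birc5 (2382 bp) in replicate 3 and at Mybl2 (2779 bp) in replicate 4. The part of depth in these widths was not tested.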

How the results depend on the processing

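All 36 members kept a promoter peak in every library under each alternative run. The count of members called lower in rank, 29, was 20 with equal numbers of peaks, 19 without the 2 deepest libraries, 19 when ranked among genes open in all 8, 33 among all peaks (Cdc20, Cenpe, Cenpm and Tpx2 gained a call) and 22 to 28 with 1 library left out. Ranked among all peaks, the median member difference was -4.31 points, and among genes open in all 8 it was -5.97. Over all genes, 3906 were called lower and 513 higher. These counts became 1717 and 772 with equal numbers of peaks, 7624 and 66 among all peaks, 1409 and 253 without the deepest libraries, and 1024 and 1141 among genes open in all 8. With all annotated genes 6605 were lower, and with 1 library left out 2347 to 3973 were lower and 270 to 535 higher. Signs turned, on the normal score scale, in Kif20a (0.031 with equal peaks, 0.172 without the deepest libraries, 0.0548 among genes open in all 8, and from -0.124 to 0.0998 with 1 library left out, positive without 37 °C replicate 1 or 39 °C replicate 3), in Aurka (-0.0725 among all peaks) and in Nuf2 (0.0391 among genes open in all 8). None of these 7 values was called. The cause was not tested.

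The labels do not say whether equal replicate numbers pair the samples. Same-numbered deviations correlated at 0.22, -0.13, 0.25 and -0.24 and different-numbered ones at -0.32 to 0.25, so these values cannot decide it. With a replicate block 23 members were called lower in rank, with 3056 of all genes lower and 410 higher, and in width 2 narrower and 0 wider, with 586 and 76 of all genes.

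In width rank the count of members called wider, 1, was 0 with 500 bp promoters, with all annotated genes, with genes open in at least 2 libraries, with percentiles and without the deepest libraries, 2 among genes open in all 8, and 0 to 1 with 1 library left out. Members called narrower, 1, were 3 with 1 start site per gene and 1 to 2 with 1 library left out. The median member difference in width rank, -4.36, was -2.09 with equal peaks and -1.24 among genes open in all 8. Over all genes, 1064 narrower and 448 wider became 388 and 38 without the deepest libraries and 570 to 1382 and 93 to 1192 with 1 library left out. The count of wider genes was 685 with equal peaks and 884 among genes open in all 8. Regions restricted to 37 °C, 13, were 3 with equal peaks, 8 with 50% of the region covered and 13 to 25 with 1 library left out, while such regions over the genome, 5120, were 1591, 5607 and 5191 to 8761. Ranks hide changes that all promoters share, and depth limits what can be said of weak peaks.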
